A study of Mus musculus with 6 samples.

Results

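The Zfp genes are the mouse genes for zinc finger proteins that carry the symbol Zfp and a number. Of 394 protein-coding Zfp genes in a table of 55487 genes, 115 had a summed count of 1500 or more over the 6 libraries of the study, and these 115 are described here. They were chosen by that measured summed count, so their presence at these levels is the rule and not a result. The study compared RNA from whole mouse aorta of animals whose Ogt gene was deleted in smooth muscle cells (the knockout group, genotype ∆Ogt, 3 libraries) with aorta of animals that carried the floxed gene (the control group, genotype LoxP, 3 libraries). Ogt encodes the enzyme that adds the sugar N-acetylglucosamine to serines and threonines of nuclear and cytoplasmic proteins. Titles of both groups carry the prefix SM22, a name of the smooth muscle protein encoded by Tagln. The labels used here give no Cre strain, age or number of mice per library. The aorta also holds endothelial, immune, fibroblast and fat cells, in which the labels do not place the deletion.

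A classical zinc finger is a short loop of protein in which a pair of cysteines and a pair of histidines hold a zinc ion (a C2H2 finger). Fingers in a row read DNA, and several Zfp proteins bind RNA or act in protein turnover instead. Many Zfp proteins also carry a KRAB domain, which recruits the corepressor Trim28 and the histone methyltransferase Setdb1 to silence transposable elements and some genes. These genes lie in clusters that grew by duplication, so that close relatives share stretches of sequence.

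The coding sequences show this architecture in the 3 many-fingered members that differ most clearly between the groups below. For each, a finger followed by the conserved linker to the next finger is given 5′ to 3′ on the coding strand, with the codons of the zinc-binding cysteines and histidines in capitals (GRCm38). The finger of Zfp568 lies at chr7:30022892-30022969 on the plus strand and encodes residues 421 to 446. The finger of Zfp467 lies at chr6:48438988-48439065 on the minus strand and encodes residues 218 to 243. The finger of Zfp612 lies at chr8:110089009-110089086 on the plus strand and encodes residues 283 to 308.
Zfp568: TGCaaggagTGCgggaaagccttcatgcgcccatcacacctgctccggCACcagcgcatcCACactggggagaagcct
Zfp467: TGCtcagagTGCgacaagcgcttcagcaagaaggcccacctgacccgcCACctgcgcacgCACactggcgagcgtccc
Zfp612: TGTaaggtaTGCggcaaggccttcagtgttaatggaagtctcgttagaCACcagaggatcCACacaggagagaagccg
Each stretch is the first match to a C2H2 pattern followed by the linker, so the spacing of the 4 zinc-binding codons was largely set by the search. The 3 stretches differ mostly in the bases between those codons.

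The libraries held 11845644 to 18218385 counts in the knockout group and 3038782 to 13738958 in the control group, where control replicate 2 was the shallowest. In that library mitochondrial ribosomal RNA took 10.2% of counts, against 0.491% to 0.823% in the other 5 libraries, and 77.2% of its counts were from protein-coding genes, against 93.2% to 94.2% elsewhere. The medians and several gene values are therefore also given without control replicate 2. Ogt had 93.3, 73.5 and 70.9 CPM (counts scaled to the size of the library) in knockout aortas, against 177.4, 183.2 and 150.0 CPM in control aortas, which follows the labels in every library. The smooth muscle markers Acta2 (11229 CPM in knockout and 11576 CPM in control aortas on average) and Myh11 (7466 and 9299 CPM) were abundant in both groups. Among marker lists of other cells, the summed level of the brown fat list was 158.6 to 211.5 CPM in knockout aortas and 288.9 to 416.8 CPM in control aortas. In that list 3 of 7 tested genes fell, while Prdm16, its most abundant gene, overlapped between the groups. The summed level of the skeletal and cardiac muscle list was 82.8 to 93.1 CPM in knockout aortas and 19.3 to 31.4 CPM in control aortas. In that list 2 of 6 tested genes rose, Ckm and Actc1. Ckm alone averaged 51.0 CPM in knockout and 3.19 CPM in control aortas, while Tnnt2 lay below control in every knockout library. The summed smooth muscle level was 24176 to 28721 CPM in knockout and 29635 to 35630 CPM in control aortas, with Tagln called lower of 8 genes. Tagln averaged 2526 CPM in knockout and 5553 CPM in control aortas, and with Tagln taken out the summed smooth muscle levels overlap between the groups. Of those 8 genes 4 lay wholly below control and the rest, among them Acta2, overlapped. The summed levels of the endothelial, immune, fibroblast, white fat and neural lists overlapped between the groups. No gene of the marker lists was at 0 counts over all 6 libraries.

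In knockout aortas 6 of the 115 Zfp genes fell and 1 rose. The genes that fell were Zfp568, Zfp467, Zfp612, Zfp703, Zfp414 and Zfp503, and the gene that rose was Zfp598, which encodes a ubiquitin ligase for collided ribosomes. A gene was called where edgeR's quasi-likelihood test gave an adjusted p (Benjamini-Hochberg over all 16139 genes tested) under 0.05. The share called lower was 5.22% of the Zfp genes and 1.56% of all tested genes, and for calls higher the background was 1.90%. In either direction 7 of the 115 were called, where the background was 3.45%. A log2 fold change below -1 was found in 4 of the 115, where the background over all tested genes was 3.92%. Of the 115 genes 83 (72.2%) had a negative log2 fold change, knockout minus control, against 51.3% of all tested genes, and 77 of these 83 were not called. Their median log2 fold change was -0.21, with a middle range of -0.46 to 0.02, while the median over all tested genes was -0.01. The summed brown fat and smooth muscle markers were also lower, and the summed skeletal and cardiac muscle markers higher, in every knockout library. For smooth muscle this rested on Tagln, without which the sums overlap. Not every gene of these lists moved with its sum, and their part in these values was not tested. In bulk tissue fewer cells of a type and less RNA per cell cannot be told apart.

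The background of all tested genes includes many at low counts, so the 7343 tested protein-coding genes that reach the same summed count are set beside the Zfp genes as well. Of those, 47.5% had a negative log2 fold change, 2.67% were called higher and 1.69% lower, and their median was 0.02. A log2 fold change below -1 was found in 0.912% of them and in 3.48% of the Zfp genes. Knockout values lay wholly below control values for 36 Zfp genes (31.3%), against 14.8% of all tested genes and 14.7% of the 7343. They lay wholly above for 8 Zfp genes (6.96%), against 16.9% of all tested genes and 21.6% of the 7343. At an unadjusted p under 0.05, 33 Zfp genes (28.7%) were lower and 7 (6.09%) higher. Of all tested genes 11.3% were lower and 11.5% higher, and of the 7343 11.4% and 15.4%. Without control replicate 2 the median of the Zfp genes was -0.16 and that of all tested genes 0.01, and 84 of the 115 values were negative. DESeq2 called 16 Zfp genes lower and 3 higher (4.60% and 4.70% of all tested genes, 370 and 539 of the 7343). Limma-voom called 8 lower and 1 higher (2.33% and 2.40% of all tested genes, 172 and 248 of the 7343).

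**Figure D1:**
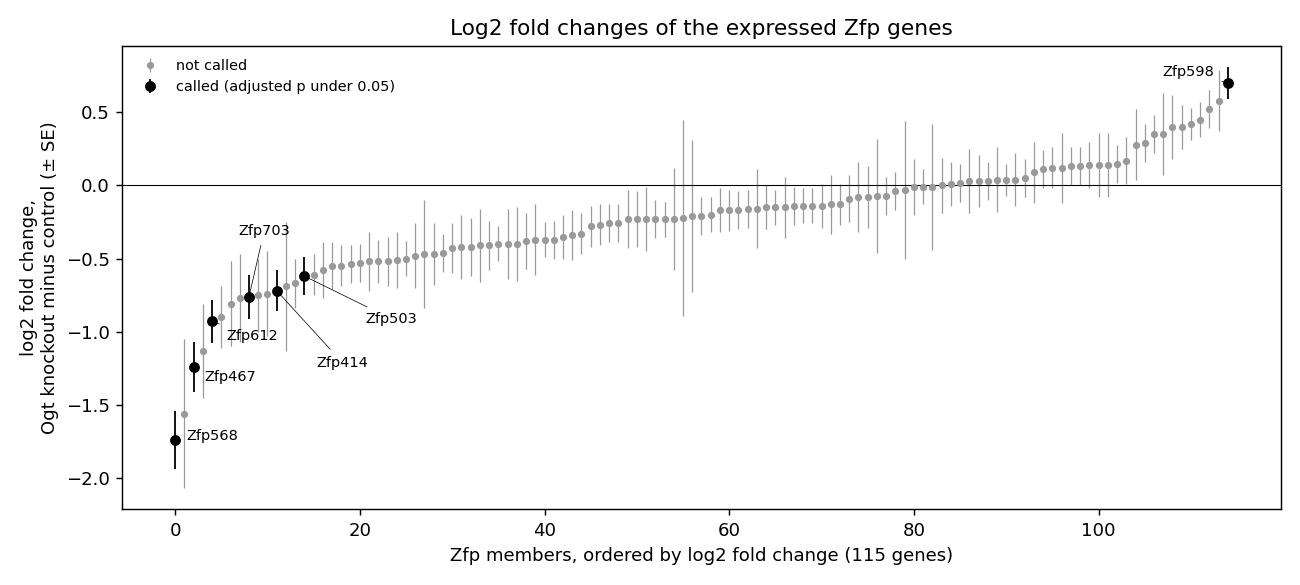
Log2 fold change (knockout minus control) with its standard error for each of the 115 Zfp genes, ordered from lowest to highest. Black points are the 7 called genes. Most points lie below 0, and the range runs from -1.74 (Zfp568) to 0.70 (Zfp598).

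**Figure D2:**
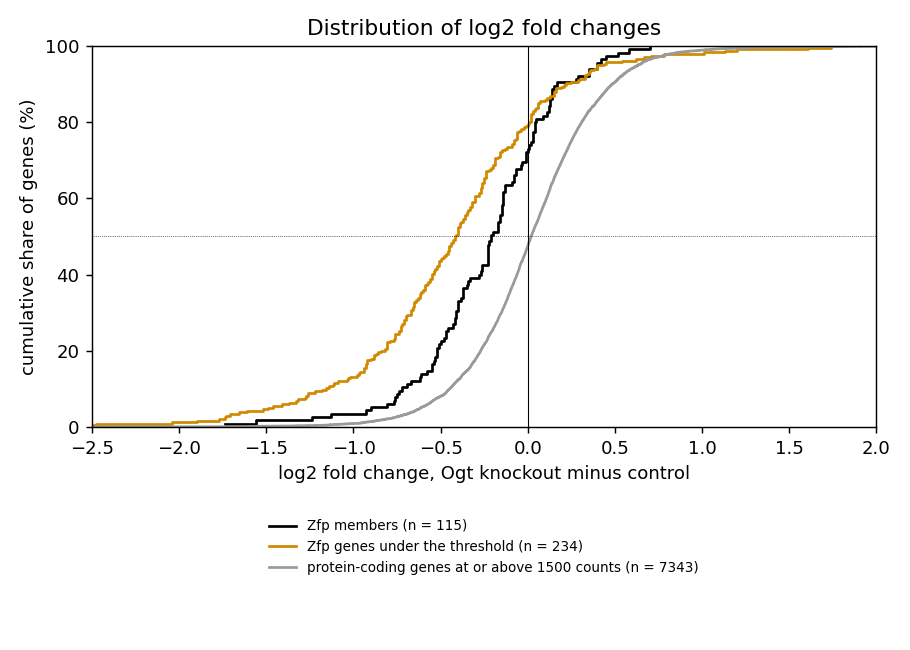
Cumulative share of genes (percent) against log2 fold change (knockout minus control) for the 115 Zfp genes, the 234 tested Zfp genes under 1500 counts and the 7343 protein-coding genes at or above 1500 counts. The curves cross 50% at their medians of -0.21, -0.41 and 0.02, and genes beyond the axis are counted but not drawn.

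Zfp568 had the largest fall. It is a KRAB zinc finger gene at chr7:29983955-30028282 (plus strand) whose protein, in mouse, represses a placental promoter of Igf2 during embryonic development. The computed protein has 671 residues with 11 C2H2 patterns. Its level was 15.3, 10.7 and 13.1 CPM in knockout aortas, against 53.7, 37.4 and 38.0 CPM in control aortas. Every knockout library lay far below every control library, and the mean level in knockout aortas was 30.3% of that in control aortas. The log2 fold change was -1.74 ± 0.20 (SE, n = 3 each, edgeR adjusted p = 0.0158). Igf2 itself was not called: it averaged 35.8 ± 13.8 CPM in knockout and 39.7 ± 20.9 CPM in control aortas (SD, n = 3 each), with overlapping libraries.

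Zfp612, the other called gene with a KRAB-like pattern, has 16 C2H2 patterns and lies at chr8:110079746-110092741 (plus strand). Its level was 16.4, 18.4 and 19.1 CPM in knockout aortas, against 39.7, 30.4 and 31.8 CPM in control aortas. The groups did not overlap, and the log2 fold change was -0.93 ± 0.15 (SE, edgeR adjusted p = 0.0300).

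Zfp467 encodes a protein with 12 C2H2 patterns that, in mouse marrow stromal cells, favours fat cell over bone cell formation (chr6:48427697-48445825, minus strand). Its level was 13.6, 11.8 and 16.9 CPM in knockout aortas, against 33.2, 29.7 and 36.3 CPM in control aortas. The highest knockout library lay well under the lowest control library. The log2 fold change was -1.24 ± 0.17 (SE, edgeR adjusted p = 0.0219), and the mean level was 42.6% of control.

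Zfp703 and Zfp503 encode the related NET family of corepressors, in which no C2H2 pattern of the classical spacing was found. Zfp703 (chr8:26977325-26981461) had 45.2, 42.3 and 43.6 CPM in knockout aortas, against 88.3, 70.1 and 63.1 CPM in control aortas. Zfp503, known from the developing striatum, had 17.7, 16.7 and 16.3 CPM in knockout aortas, against 26.8, 27.4 and 23.8 CPM in control aortas (chr14:21983959-21989601). Both genes were tightly grouped in knockout libraries and lay below all control libraries. The log2 fold changes were -0.76 ± 0.15 for Zfp703 (edgeR adjusted p = 0.0416) and -0.62 ± 0.13 for Zfp503 (edgeR adjusted p = 0.0482). An exon of Zfp703 overlaps the antisense gene Gm45371, and with the strand setting of the counting unknown the reads of such pairs cannot be told apart.

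Zfp414 (chr17:33629090-33631779) had 17.4, 14.4 and 15.4 CPM in knockout aortas, against 24.3, 24.8 and 28.3 CPM in control aortas. The groups did not overlap, with a log2 fold change of -0.72 ± 0.14 (SE, edgeR adjusted p = 0.0441). Its exons overlap Gm20507 on the same strand and 27.9% of its 31-base words occur in transcripts of other genes, so its count is uncertain.

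Zfp598 (chr17:24669687-24682016, plus strand) was the single Zfp gene that rose. It also had the highest level per length (FPKM) averaged over all 6 libraries, a mean that includes its rise. In control libraries it had 17.2, 15.0 and 17.4 FPKM, where Zfp36 had 21.7, 15.0 and 25.1 FPKM. The Zfp598 protein marks ribosomes that have run into each other, which starts the quality control of the stalled mRNA. The level of Zfp598 was 155.1, 145.3 and 132.6 CPM in knockout aortas, against 87.8, 91.2 and 88.0 CPM in control aortas. All knockout libraries lay above the narrow control range. The log2 fold change was 0.70 ± 0.11 (SE, edgeR adjusted p = 0.0295), and the mean level was 162.1% of control.

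**Figure D3:**
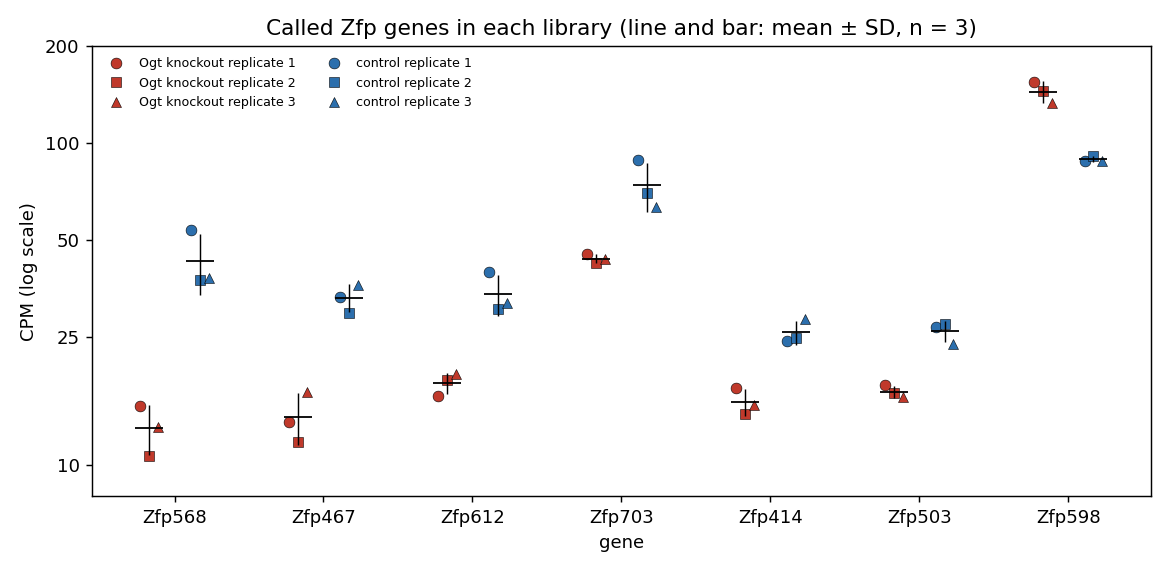
CPM (log scale) of the 7 called Zfp genes in each library, knockout left of control for every gene, with lines and bars for the mean and SD (n = 3). For no gene do the groups overlap: the 3 knockout libraries of Zfp568 sit between 10.7 and 15.3 CPM, against 37.4 to 53.7 CPM in control libraries.

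The 7 calls rested on having all 3 knockout libraries and control replicate 1. Without control replicate 1, or without knockout replicate 1, 2 or 3, none of the 115 genes was called by edgeR, while the unadjusted p was under 0.05 for 20 to 25 genes lower and 5 to 6 higher. Of all tested genes, 6.89% to 9.62% were lower and 7.32% to 10.4% higher at that p in the same fits. In those fits calls over all tested genes also dropped to between 4 and 19 higher and between 3 and 14 lower. Without control replicate 3 the calls of Zfp598, Zfp414 and Zfp503 were lost, and without control replicate 2 all 7 stood. The groups of these 7 genes did not overlap, so leaving out 1 library could not turn their direction and says nothing about it. Over all fits that left out 1 library Zfp568 lay between -1.85 and -1.54 and Zfp598 between 0.65 and 0.76 on the log2 scale.

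The promoters of the called genes that fell and rose most, among those in the RefSeq table of promoters (GRCm38.p6), are shown because a GC box, the letters GGGCGG that Sp family factors bind, was common in the promoters of the Zfp genes. The 250 bases before the start site of Zfp467 (chr6:48445091-48445340, minus strand) and of Zfp598 (chr17:24669437-24669686, plus strand) are given 5′ to 3′ on the strand of the gene, with GC boxes in capitals.
Zfp467: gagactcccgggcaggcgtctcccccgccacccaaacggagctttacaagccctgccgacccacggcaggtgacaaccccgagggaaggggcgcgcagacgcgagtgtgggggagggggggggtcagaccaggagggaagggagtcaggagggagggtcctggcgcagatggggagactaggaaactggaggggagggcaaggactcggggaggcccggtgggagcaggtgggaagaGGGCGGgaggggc
Zfp598: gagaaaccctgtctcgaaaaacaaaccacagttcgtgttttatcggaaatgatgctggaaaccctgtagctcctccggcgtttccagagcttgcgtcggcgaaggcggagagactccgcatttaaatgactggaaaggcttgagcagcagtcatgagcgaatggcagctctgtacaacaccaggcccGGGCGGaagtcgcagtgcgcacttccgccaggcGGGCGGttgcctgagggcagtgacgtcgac
Zfp467, which fell, holds 1 GC box and Zfp598, which rose, holds 2. Of the 4 called genes with a promoter in the RefSeq table these were the only carriers, and Zfp414 and Zfp503, which fell, held no GC box. For the shares that follow, the whole promoter entries were searched on both strands, and these run past the start site beyond the 250 bases shown. The GC box was in 61.4% of 114 promoters of the Zfp genes (91 of the 115 genes matched by symbol) and in 35.7% of all 32851 promoters. The ETS letters CCGGAAG were in 16.7% against 8.86% and the NRF1 motif in 3.51% against 0.971%. The YY1 letters AAGATGGCG were in 3.51% against 1.40% and the cAMP element TGACGTCA in 3.51% against 1.79%. The CCAAT letters were in 37.7% against 37.4%, and the E box CACGTG in 6.14% against 7.15%. The Zfp genes were chosen by counts, while the 32851 promoters were taken whether or not their genes were expressed in aorta. Promoters of genes with like counts were not compared, so these differences cannot be ascribed to the Zfp genes as such.

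Of 9 Zfp genes whose products act on RNA or ribosomes or are otherwise linked to RNA, Zfp598 rose and the other 8 were not called. The median of the 9 log2 fold changes was -0.14, or -0.08 without control replicate 2. Zfp622, which takes part in maturation of the large ribosomal subunit, had 39.2, 41.9 and 36.9 CPM in knockout aortas, against 34.5, 30.0 and 28.1 CPM in control aortas. These groups did not overlap, but the test was not passed (0.35 ± 0.13, edgeR adjusted p = 0.167). Zfp207, a spindle protein that loads Bub3, had 50.4, 57.5 and 57.1 CPM in knockout aortas, against 66.9, 84.9 and 60.6 CPM in control aortas (-0.35 ± 0.15, edgeR adjusted p = 0.213, and -0.21 without control replicate 2). Zfp36 (tristetraprolin), the member with CCCH rather than C2H2 fingers, binds AU-rich mRNAs and speeds their decay. It had 90.7, 108.5 and 93.6 CPM in knockout aortas, against 107.5, 89.0 and 124.0 CPM in control aortas, with overlapping groups. Its log2 fold change was -0.14 ± 0.15 (SE). Zfp106, an RNA-binding protein needed by motor neurons and muscle, averaged 189.5 ± 5.68 CPM in knockout and 175.3 ± 27.7 CPM in control aortas (SD, n = 3 each). The splicing factor Zfp326 averaged 20.7 ± 2.15 CPM in knockout and 23.4 ± 1.24 CPM in control aortas, with no call. Zfp638, known for silencing retroviral DNA, had 44.7, 41.8 and 51.8 CPM in knockout aortas, against 55.1, 89.4 and 43.1 CPM in control aortas, which overlapped. Zfp385a, a modulator of p53, averaged 26.1 ± 4.67 CPM in knockout and 24.1 ± 5.75 CPM in control aortas.

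Among 5 Zfp genes known from mesenchymal and fat cells, Zfp467 and Zfp703 fell, all 5 log2 fold changes were negative, and the median was -0.81. Zfp516, which activates Ucp1 in brown fat, had 26.8, 23.6 and 31.7 CPM in knockout aortas, against 45.1, 71.2 and 31.2 CPM in control aortas. The groups overlapped through control replicate 3, and the test was not passed (-0.81 ± 0.29, edgeR adjusted p = 0.154). Without control replicate 2 its log2 fold change was -0.47. The other 2 genes of the list have fewer than 1500 summed counts. Zfp423, a preadipocyte factor with 1383 counts, had 17.1, 13.2 and 14.1 CPM in knockout aortas, against 19.0, 37.4 and 23.3 CPM in control aortas (-0.81 ± 0.26, edgeR adjusted p = 0.123, and -0.51 without control replicate 2). Zfp521, which opposes it and had 533 counts, had 4.93, 4.76 and 4.85 CPM in knockout aortas, against 7.35, 18.9 and 10.7 CPM in control aortas (-1.27 ± 0.33, edgeR adjusted p = 0.0791). Both lay below every control library, and in both control replicate 2 was the highest. DESeq2 called 4 of the 5 genes lower, among them Zfp423 (adjusted p = 0.0479) and Zfp521 (adjusted p = 0.00966), but not Zfp516 (adjusted p = 0.0602). Beside them Ucp1, the uncoupling protein of brown fat, averaged 7.03 ± 1.18 CPM in knockout and 38.3 ± 1.57 CPM in control aortas (SD, n = 3 each), and Cidea, another brown fat gene, 31.3 ± 0.597 and 39.9 ± 10.9 CPM. The part of brown fat cells in the Zfp values was not tested.

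Of 11 Zfp genes linked to chromatin or imprints, Zfp568 fell and the other 10 were not called, with a median of -0.14 over the list. Zfp809, a KRAB protein that recognises the primer-binding site of retroviruses, had 75.5, 81.5 and 86.5 CPM in knockout aortas, against 48.3, 40.4 and 72.3 CPM in control aortas. Every knockout library lay above every control library, but control replicate 3 was close to them, and the test was not passed (0.58 ± 0.21, edgeR adjusted p = 0.155). Without control replicate 3 the log2 fold change was 0.86 (edgeR adjusted p = 0.0460). Zfp445, which protects imprints, averaged 118.8 ± 10.5 CPM in knockout and 130.4 ± 6.33 CPM in control aortas. The GC-rich DNA binders Zfp281 (80.7 ± 3.47 and 93.0 ± 8.66 CPM) and Zfp148 (51.8 ± 1.27 and 65.7 ± 10.5 CPM) lay below control in every library without a call. Zfp335, part of a histone H3K4 methyltransferase complex, averaged 60.5 ± 10.4 CPM in knockout and 45.8 ± 2.04 CPM in control aortas (0.40 ± 0.15, edgeR adjusted p = 0.160), and its exons overlap antisense genes. Zfp410, which controls Chd4, averaged 28.9 ± 1.97 CPM in knockout and 26.9 ± 8.97 CPM in control aortas. The list holds 4 genes under the count threshold (Zfp57, Zfp932, Zfp217 and Zfp462). Zfp57, the other imprint factor, had the smallest edgeR adjusted p of these (0.177), averaging 6.83 ± 3.89 CPM in knockout and 3.06 ± 0.121 CPM in control aortas (SD, n = 3 each).

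The genes of the partners of KRAB proteins lay on both sides of 0. Of 30 corepressor and heterochromatin genes, Dnmt1 rose (63.1 ± 5.19 CPM in knockout and 40.8 ± 2.50 CPM in control aortas, log2 fold change 0.63 ± 0.12, edgeR adjusted p = 0.0398) and none fell. Trim28 averaged 106.2 ± 6.56 CPM in knockout and 95.5 ± 13.1 CPM in control aortas, and Setdb1 43.8 ± 1.59 and 40.6 ± 2.01 CPM. Neither was called. The median of the 30 log2 fold changes was 0.09, with 18 positive and 12 negative. At an unadjusted p under 0.05, 5 of the 30 were higher and 3 lower in knockout aortas, DESeq2 called 1 in each direction, and limma-voom called 1 higher. The background at that unadjusted p was 11.5% higher and 11.3% lower. The gene that DESeq2 called lower was Atf7ip (adjusted p = 0.00172), with 52.2, 47.2 and 57.4 CPM in knockout aortas, against 96.3, 145.0 and 78.0 CPM in control aortas. By edgeR it had -1.01 ± 0.23 (adjusted p = 0.0557), or -0.73 without control replicate 2 (adjusted p = 0.0342). Among the fits that left out 1 library, the edgeR call of Dnmt1 stood only without control replicate 2.

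By fitted size, the 5 largest positive values belonged to Zfp598, Zfp809, Zfp408, Zfp948 and Zfp384. Zfp408, whose human counterpart is mutated in an inherited disease of retinal vessels, had 25.7, 24.5 and 22.3 CPM in knockout aortas, against 16.9, 15.6 and 17.7 CPM in control aortas (0.52 ± 0.13, edgeR adjusted p = 0.0759). Zfp948 had 27.6, 25.7 and 26.4 CPM in knockout aortas, against 18.2, 20.0 and 20.4 CPM in control aortas (0.45 ± 0.12, edgeR adjusted p = 0.0907). Zfp384, a nuclear matrix transcription factor, had 68.1, 63.5 and 68.4 CPM in knockout aortas, against 45.3, 54.1 and 50.5 CPM in control aortas (0.42 ± 0.11, edgeR adjusted p = 0.0864). In all 3 genes the groups were apart and tight, and edgeR did not call them over all libraries. Without control replicate 2 Zfp384 was called (0.48, edgeR adjusted p = 0.0451). DESeq2 called Zfp408 (adjusted p = 0.0488) and Zfp384 (adjusted p = 0.0440).

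The 5 largest negative values belonged to Zfp568, Zfp740, Zfp467, Zfp280d and Zfp612. Zfp740 had 20.9, 25.1 and 21.0 CPM in knockout aortas, against 83.0, 96.0 and 22.1 CPM in control aortas. Control replicate 3 lay among the knockout libraries, so the value of -1.56 ± 0.51 was not called by edgeR (adjusted p = 0.142). Without control replicate 3 the log2 fold change was -1.99 (edgeR adjusted p = 0.00630). Zfp280d had 16.4, 12.4 and 15.9 CPM in knockout aortas, against 29.1, 50.8 and 20.7 CPM in control aortas (-1.13 ± 0.32, edgeR adjusted p = 0.0950). Its groups did not overlap, and without control replicate 2, its highest library, its log2 fold change was -0.74 (edgeR adjusted p = 0.0768). DESeq2 called both Zfp740 (adjusted p = 0.00706) and Zfp280d (adjusted p = 0.0108). Exons of Zfp740 overlap the antisense gene Csad, and those of Zfp280d overlap BC065403.

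Per length, as FPKM averaged over the 6 libraries, the Zfp genes ran from 0.711 (Zfp280d) to 21.6 (Zfp598) with a median of 3.36, near the median of 3.49 for tested protein-coding genes. After Zfp598 (21.6 ± 5.71 FPKM, SD, n = 6) came Zfp36 with 19.5 ± 3.60, Zfp706 with 15.0 ± 2.26 and Zfp651 with 14.5 ± 1.76 FPKM. Zfp703 (13.6 ± 4.60 FPKM) and Zfp362 (13.2 ± 2.50 FPKM) followed. Neighbours in this order lay within each other's spread, and the SD over 6 libraries includes any difference between the groups. Of these 6 genes Zfp706, Zfp651, Zfp36 and Zfp362 were not called. Zfp706, a short protein of 76 residues and the smallest of the set, had 88.8, 85.6 and 89.0 CPM in knockout aortas, against 92.4, 70.1 and 91.4 CPM in control aortas. At the low end of the rule, Zfp654 (1506 counts), Zfp267 (1525) and Zfp334 (1526) were just inside, with log2 fold changes of -0.23, -0.52 and -0.52. These were -0.05, -0.34 and -0.41 without control replicate 2. Zfp316 (1464 counts), Zfp52 (1458) and Zfp513 (1437) were just outside, with -0.27, 0.02 and 0.06, or -0.27, 0.30 and 0.26 without control replicate 2.

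By sequence, 25 of the 115 (21.7%) had a KRAB-like pattern, a lower share than the 47.6% of the 233 tested Zfp genes under the threshold with a coding sequence. Of these 25 genes 2 fell, 20 had negative values, and the median was -0.40. Without control replicate 2 that median was -0.18. Of the 90 genes without the pattern 4 fell and 1 rose, 63 had negative values, and the median was -0.16, or -0.15 without control replicate 2. The difference between these classes was not tested. The pattern is a single fixed motif, so a KRAB domain that departs from it is counted among the genes without the pattern. The proteins had a median of 614 residues and of 9 C2H2 patterns, up to 36 in Zfp142. The 44 genes with 10 or more C2H2 patterns had a median of -0.37 with 3 called lower, the 31 with 0 to 4 a median of -0.21 with 3 lower and 1 higher, and the 40 in between a median of -0.15. These medians were -0.19, -0.17 and -0.08 without control replicate 2.

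By position, the genes lay on 20 chromosomes, with 20 of the 115 on chromosome 7. The median was -0.22 for the 58 genes with no other Zfp gene within 500 kb, -0.15 for the 23 with 1 to 3 and -0.19 for the 34 with 4 or more. Leaving out control replicate 2 gave medians of -0.15, -0.18 and -0.11, in another order. Around Zfp568, 14 other Zfp genes were tested within 500 kb. Of these neighbours 8 had negative values, and they ranged from -1.46 (Zfp940) to 1.74 (Zfp82), on both sides of 0. The smallest edgeR adjusted p among them was 0.0593 (Zfp383), while DESeq2 gave Zfp383 an adjusted p of 0.0184 and Zfp940 one of 0.0198. The 40 genes whose exons overlap another gene had a median of -0.06, and the 33 with 5% or more of their 31-base words in other genes were the ones most exposed to shared reads. Leaving out either set gave a median of -0.23.

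Zfp genes outside the count rule also lay mostly lower in knockout aortas. Of 234 tested Zfp genes under 1500 counts, 186 (79.5%) had negative values, 8 (3.42%) fell and 1 (0.427%) rose. Their median was -0.41, or -0.32 without control replicate 2. Of all 5913 tested protein-coding genes under 1500 counts, 53.4% had negative values, 1.78% fell and 1.64% rose. The median of those was -0.05, or -0.02 without control replicate 2. Chosen after its value was seen, Zfp62 had 4.17, 4.12 and 4.80 CPM in knockout aortas, against 27.9, 40.8 and 28.8 CPM in control aortas, a log2 fold change of -2.87 ± 0.20 (edgeR adjusted p = 0.00230). The single rise among the 234 Zfp genes was Zfp185 (edgeR adjusted p = 0.0265). It had 9.19, 8.82 and 9.43 CPM in knockout aortas, against 2.34, 2.60 and 3.85 CPM in control aortas. The related Zbtb, Zscan and Zkscan genes, which join zinc fingers to other protein domains, had 39 negative values among 55 tested, with a median of -0.30, or -0.21 without control replicate 2. None of the 55 was called by edgeR, while 13 were lower and 3 higher at an unadjusted p under 0.05 (background 11.3% lower and 11.5% higher), DESeq2 called 6 lower and 1 higher, and limma-voom called 1 lower.

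Summed over the 115 genes, the Zfp genes took 0.446%, 0.473% and 0.480% of protein-coding counts in knockout libraries, against 0.561%, 0.626% and 0.519% in control libraries. Every knockout library lay below every control library, the closest being knockout replicate 3 (0.480%) and control replicate 3 (0.519%). Control replicate 2, the library with the most mitochondrial ribosomal RNA, was the highest of 6 libraries for 56 of the 115 genes (48.7%), against 27.8% of all tested genes. Knockout replicate 1 was the lowest for 37 of the 115 (32.2%), against 18.1% of all tested genes. The part of RNA quality in these values was not tested.

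**Figure D4:**
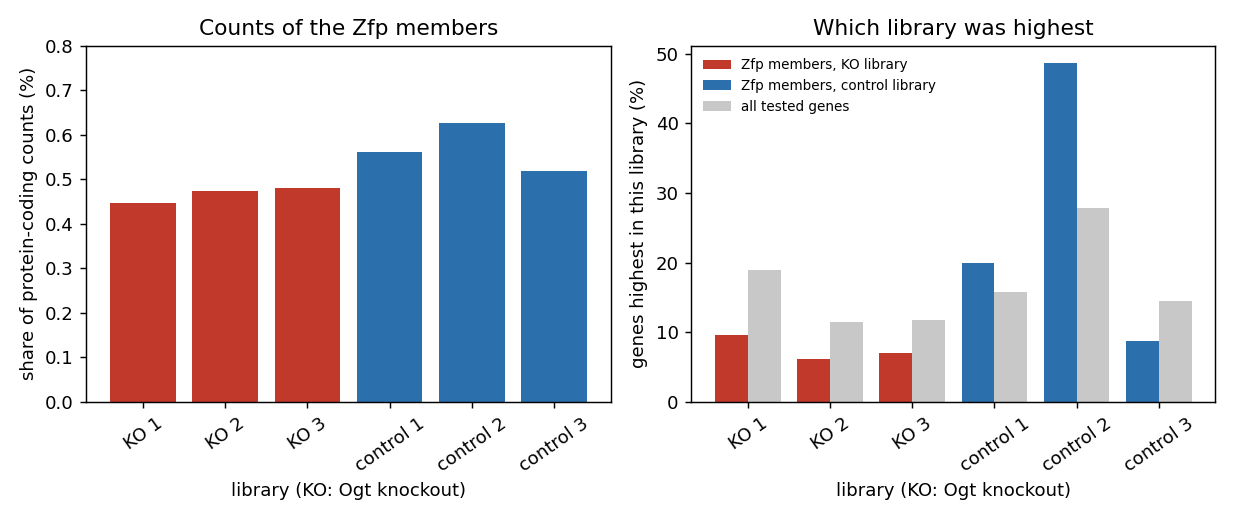
Left, share of protein-coding counts (percent) held by the 115 Zfp genes in each library. Right, percent of the Zfp genes (coloured) and of all tested genes (grey) for which a library was the highest of 6. Knockout libraries stay at or below 0.480%, and control replicate 2 was the highest for 48.7% of the Zfp genes.

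Spread within the groups was smaller in knockout than in control libraries: the median coefficient of variation over the 115 genes was 8.79% in knockout and 15.8% in control, with 11.5% and 19.9% over all tested genes. A few genes departed from this. The ratio of the highest to the lowest library was over 2 for 5 genes in the knockout group and 14 genes in the control group. In most of those 14 control replicate 2, the shallowest library, was the highest or the lowest. The control spread includes that library, and its part in the difference between the groups was not tested. Zfp346, a protein that binds double-stranded RNA, had 32.2, 29.2 and 4.80 CPM in knockout aortas, against 30.4, 14.5 and 29.7 CPM in control aortas. Its low library was knockout replicate 3, and without it the log2 fold change was 0.27, where it was -0.22 ± 0.67 over all libraries. Zfp180 was also lowest in knockout replicate 3, with 26.5, 25.2 and 6.11 CPM in knockout aortas, against 17.5, 22.6 and 26.8 CPM in control aortas. Zfp865 had 14.5, 27.1 and 48.6 CPM in knockout aortas, against 23.4, 46.0 and 25.7 CPM in control aortas, and its exons overlap several other genes. In the control group Zfp12 was low in control replicate 3 alone (23.6, 25.2 and 22.5 CPM in knockout aortas, against 30.0, 34.5 and 9.30 CPM in control aortas). Zfp644 was high in control replicate 2, with 27.6, 33.5 and 46.0 CPM in knockout aortas, against 46.3, 100.9 and 30.6 CPM in control aortas. Its log2 fold change was -0.69 ± 0.44 over all libraries and -0.10 without control replicate 2. None of these 5 genes was called by edgeR.

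**Figure D5:**
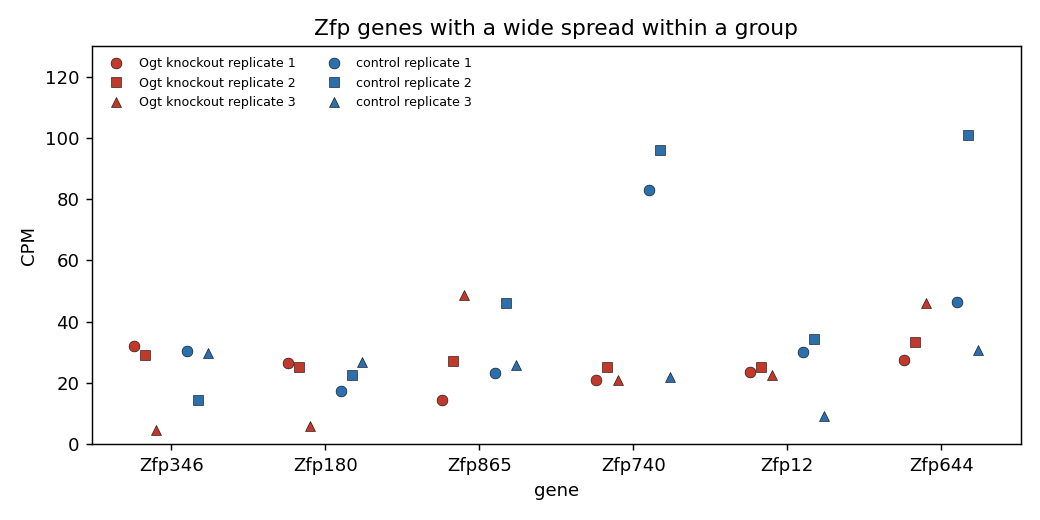
CPM in each library for Zfp346, Zfp180, Zfp865, Zfp740, Zfp12 and Zfp644, knockout left of control for every gene. A single library sets the spread in most of them, such as 4.80 CPM for Zfp346 in knockout replicate 3 and 100.9 CPM for Zfp644 in control replicate 2.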

How the data were processed

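RNA of whole aorta was sequenced in 3 knockout and 3 control libraries, grouped by titles and genotype labels. The labels do not say whether libraries come from separate mice, so p-values measure the spread between these libraries, which may be technical. The authors deposited 1 table with, per the file headers, counts of reads and FPKM values for every gene and library. Per the submitters' processing notes, CASAVA 1.8, HISAT2, SAMtools 1.3.1 and edgeR were used. How reads were assigned to genes, with which annotation and whether by strand, is not given in the sources used here. The notes name GRCm39, but 113 of the 115 Zfp genes have the positions of GENCODE M21 (GRCm38), which are used.

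Counts were analysed in R 4.3.3 with edgeR 4.0.16 (filterByExpr by group, TMM scaling, robust glmQLFit and glmQLFTest), adjusted by Benjamini-Hochberg over 16139 genes with a threshold of 0.05, after the script was tested on simulated data. CPM use TMM-adjusted library sizes, and the SE is the size of that change over the root of its F statistic. FPKM compare levels between genes only. Depth was 3038782 to 18218385 counts per library, and the median count of a Zfp gene was 100 in control replicate 2 and 312 to 506 in the others. Alternatives were DESeq2 1.42.0, limma-voom 3.58.1, other scaling, filters, thresholds and left-out libraries.

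Zinc finger patterns came from translated GENCODE M21 coding sequences. A C2H2 pattern is a pair of cysteines with 2 to 4 residues between them, then 12 residues, then a pair of histidines with 3 to 5 between them. A KRAB-like pattern is an 11-residue motif of the KRAB domain. Genes were named by rule: the called, the 5 largest rises and falls by fitted value, the 6 highest by FPKM, 3 on each side of the count threshold, the role lists, Ogt, and Trim28, Setdb1 and called corepressor genes. Igf2, Atf7ip, Zfp62, Zfp185, Zfp142 and the genes of wide spread or in a cluster were added after their values were seen. The Zfp genes and lists were chosen with earlier results of these data known.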

Additional observations from a re-analysis of the deposited data

How the results depend on the processing

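Of the 115 Zfp genes edgeR called 6 lower and 1 higher with a median log2 fold change of -0.21, and 251 lower and 306 higher of all tested genes. DESeq2 called 16 lower and 3 higher, and 742 and 759 of all. Without a filter on low counts the median was -0.16 with 4 lower and 1 higher, and Zfp414 and Zfp503 were no longer called. Limma-voom called 8 lower and 1 higher, with 376 and 387 of all tested genes, and other scaling and non-robust estimation left the Zfp counts at 6 and 1. Genes chosen at 500 or more summed counts had 10 lower, 2 higher and a median of -0.26, and those at 3000 or more 1 lower and a median of -0.16. Other sets, chosen after seeing the data, gave 6 or 4 lower and 1 higher each: the genes ranked by mean CPM (112 shared), those with under 5% shared words, and those without exon overlap. Leaving out each library in turn gave 0 to 7 Zfp genes lower, 0 to 3 higher and medians of -0.23 to -0.16, and 3 to 420 lower and 4 to 491 higher of all tested genes.

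The replicate numbers in the titles did not pair the libraries, since deviations of same-numbered libraries correlated at 0.052, 0.086 and -0.060. With the replicate block 1 Zfp gene (Zfp568) was lower and 0 were higher, and of all tested genes 10 were lower and 18 higher. At an unadjusted p under 0.05 the block gave 29 Zfp genes lower and 5 higher, against 9.05% lower and 9.35% higher of all tested genes.

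Of the genes named by rule, those not called whose sign turned when 1 library was left out ranged from -0.06 to 0.11 (Zfp706), -0.13 to 0.30 (Zfp52), -0.22 to 0.26 (Zfp513), -0.58 to 0.27 (Zfp346), -0.05 to 0.27 (Zfp385a), -0.15 to 0.05 (Zfp217) and -0.04 to 0.41 (Zfp410) on the log2 scale. Of the genes added after their values were seen, the same held for Zfp180 (-0.50 to 0.22), Zfp865 (-0.56 to 0.31), Zfp12 (-0.43 to 0.28), Zfp142 (-0.10 to 0.28) and Igf2 (-0.50 to 0.32). Of the other values of named genes under alternatives, 482 kept direction and side of the threshold, 50 lost a call and 9 gained one. The cause of these changes was not tested. Control replicate 2, with 28 counts for its lowest Zfp gene, limits precision.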
